A study of Mus musculus with 11 samples.

Results

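The Hox cluster genes are the 39 protein-coding mouse genes whose symbol is Hox followed by a cluster letter from a to d and a number, and they were taken by that rule from the 54838 gene identifiers counted in each library. They lie in 4 clusters (GRCm38): 11 genes of HoxA on chromosome 6 (52155590 to 52260880), 10 of HoxB on chromosome 11 (96194316 to 96368256), 9 of HoxC on chromosome 15 (102921103 to 103036852) and 9 of HoxD on chromosome 2 (74668310 to 74765142). The libraries came from E14, an established line of mouse embryonic stem cells (ESCs), grown with LIF on gelatin, with no feeder layer named in the labels. Cells received a scramble control siRNA (3 libraries), CMTR1 siRNA 1 (4 libraries) or CMTR1 siRNA 2 (4 libraries) for 36 h, and rRNA-depleted total RNA was sequenced from directional libraries. CMTR1 is the cap methyltransferase that modifies the ribose of the first transcribed nucleotide of mRNA, and the comparison of each siRNA with the control addresses which transcripts change in level when the cells are treated against it. All libraries are of 1 cell line. The study's methods call the replicates biological, and the labels do not say whether they were separate cultures, so p-values measure the spread between these libraries.

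Hox genes encode homeodomain transcription factors that give cells their position along the head-to-tail axis and the limbs of the embryo. Within a cluster they are ordered by paralog number, low numbers being used early and anteriorly and high numbers late and posteriorly, and retinoic acid, WNT signals and CDX factors are known to open the clusters during differentiation. In undifferentiated ESCs the clusters are a classic target of the Polycomb complexes, which keep them at a low level, whereas MLL (trithorax) complexes favour their expression.

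The homeobox, the coding stretch shared by the family, is shown for Hoxb9, an abundant member, as an example of the part by which the members could be confused. It was read 5′ to 3′ from the GRCm38 transcripts, is 180 bases long and lies within 1 coding exon (chr11:96274659-96274838, + strand, exon 2 of 2), and the capitals mark the conserved part that encodes the recognition helix.
Hoxb9: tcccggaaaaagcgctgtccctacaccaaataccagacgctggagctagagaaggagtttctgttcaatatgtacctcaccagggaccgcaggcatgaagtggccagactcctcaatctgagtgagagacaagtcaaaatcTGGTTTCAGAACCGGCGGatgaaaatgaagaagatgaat

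The homeoboxes of the members differed enough for reads to be told apart. Hoxa3 and Hoxb4 were identical at 76.7% of the 180 positions, and Hoxb4 and Hoxb9 at 58.9%. Over the 741 pairs of members the median identity was 61.1% (range 46.1% to 93.9%, the highest being Hoxa3 with Hoxb3), and the longest identical run was 52 bases, shorter than a read of 75 bases. No 75-base word of any of the 39 transcripts was found in a Hox transcript at a separate position. Sharing by overlap was more common: 9 members share exonic bases on the same strand with another annotated gene, among them Hoxa2 and Hoxa3 with the read-through model Gm28308 and Hoxd3 and Hoxd4 with each other and Gm28230, and 10 have an antisense gene over part of their exons. Only 37.7% of the exonic bases of Hoxd3 and 47.7% of those of Hoxd4 are free of a same-strand partner, so their counts are uncertain. For Hoxa3, 72.9% of the exonic bases are free of any partner on either strand. The antisense genes over part of the rest are 5730596B20Rik, Gm29430, Hoxaas2 and Hoxaas3. The strand setting of the counting was not given in the sources used here. Reads of Hoxa3 and of these genes therefore cannot be told apart with certainty.

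The Hox clusters as a group were close to silent. All 39 members together took 2206 of 84167944 reads counted in genes, or 26.2 CPM (read counts scaled to the total of reads in genes of a library). Of the 39, 37 had at least 1 read, 15 had a read in every library, 12 had fewer than 10 reads over all 11 libraries, and Hoxa6 and Hoxd4 had none, which allows a level of up to 0.0356 CPM over all libraries, counting error only. Libraries held 6738478 to 8382318 reads in genes, so 1 read was worth 0.119 to 0.148 CPM. Testing was limited to genes with more than 1 CPM in at least 4 libraries, which 16073 genes passed. Among the members 11 passed (28.2%), compared with 60.1% of 21998 protein-coding genes and 14 of 30 other developmental regulators known as Polycomb targets (46.7%). The remaining 28 members were too low to be tested by this rule, and those 11 held 79.4% of all Hox reads. In the plot of read counts by gene and library, most of HoxC and HoxD is at 0 to a few reads.

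**Figure D1:**
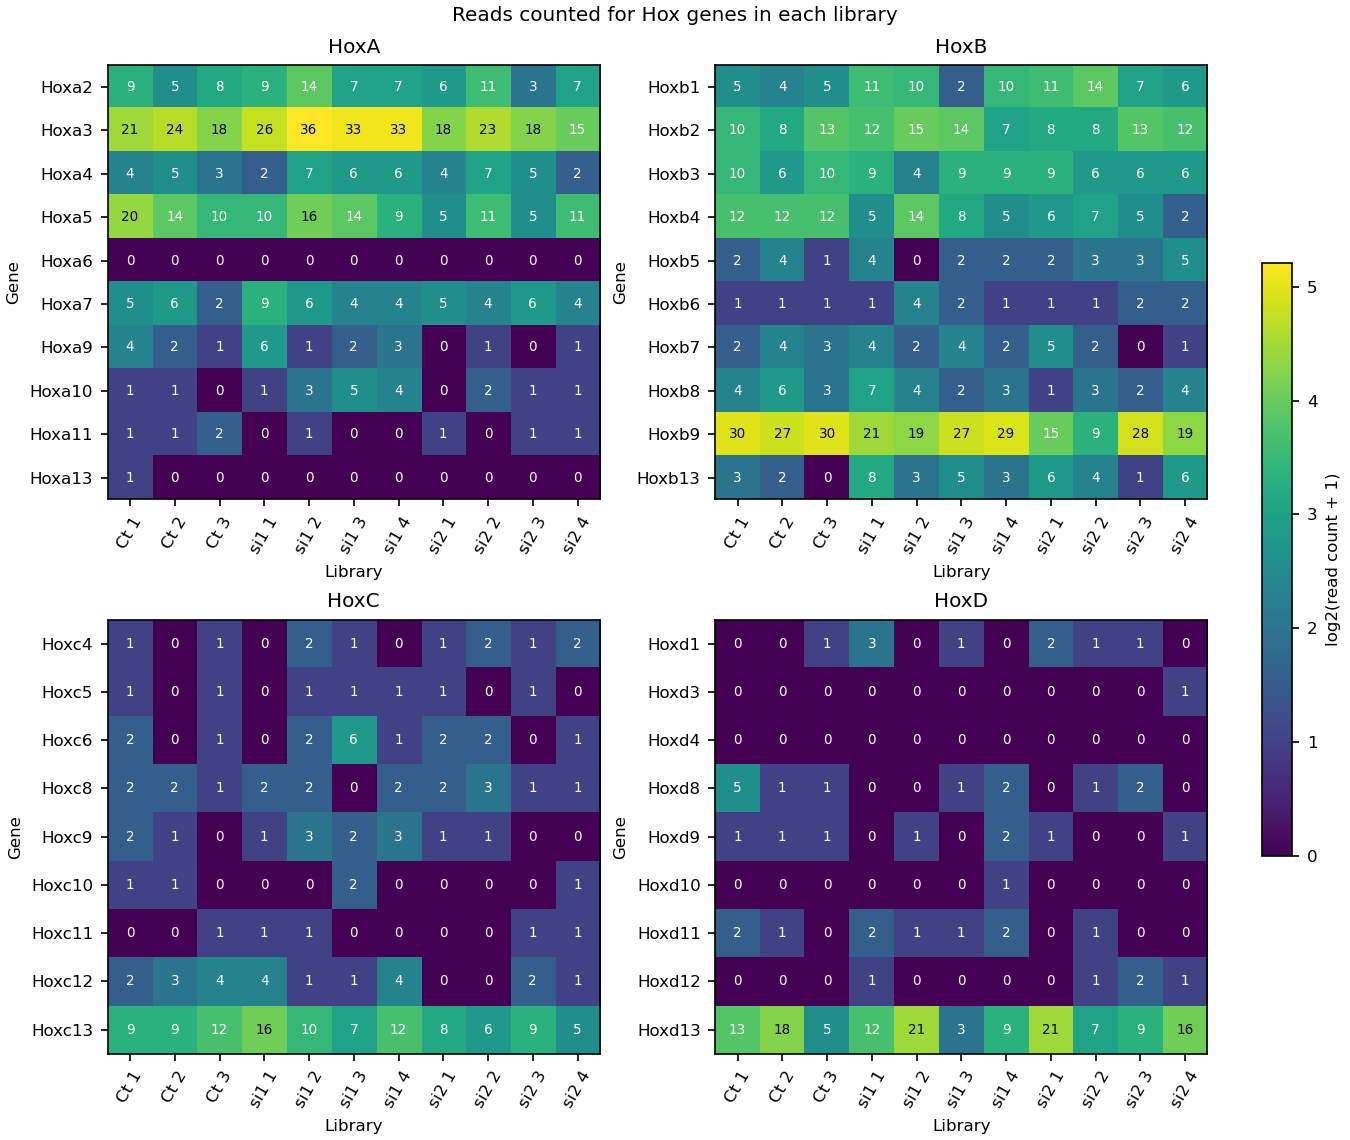
Read counts of 38 Hox genes (rows, by paralog number) in each of the 11 libraries (columns: Ct, control siRNA; si1 and si2, CMTR1 siRNA 1 and 2), with the colour giving log2(count + 1). Hoxa3 (15 to 36 reads) and Hoxb9 (9 to 30 reads) are among the brightest rows, and Hoxa6 and Hoxd4 are at 0 throughout.

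HoxA held 47.1% of the Hox reads, HoxB 35.6%, HoxC 9.16% and HoxD 8.21%. Per kilobase of exon, Hoxb9, a thoracic paralog, was among the highest at 1.18 CPM per kb, and Hoxa5 was at 0.785 CPM per kb. The median of the 39 members was 0.0834 CPM per kb, against 0.976 CPM per kb over all protein-coding genes. The levels of neighbours in this order often overlapped between libraries: the ranges of Hoxa5, Hoxd13, Hoxa2, Hoxa3 and Hoxc13 overlapped one another.

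The clusters differed in which end carried the reads. In HoxA the level per kb fell with the paralog number (Spearman's rho −0.73 over 10 of its 11 genes): Hoxa5 and Hoxa2 (0.574 CPM per kb) were near the top, and Hoxa9 to Hoxa13 were each at 0.0685 CPM per kb or lower. In HoxB, Hoxb9 stood above Hoxb1 (0.438 CPM per kb) and Hoxb2 (0.411 CPM per kb), and rho was −0.32 over 10 genes. In HoxC and HoxD the highest member was the last gene of the cluster, Hoxc13 at 0.506 CPM per kb and Hoxd13 at 0.643 CPM per kb, with rho 0.47 and 0.23 over 9 genes each. Behind them came Hoxc12 (0.259 CPM per kb) and Hoxc6 (0.0834 CPM per kb) in HoxC, and Hoxd1 (0.0610 CPM per kb) and Hoxd8 (0.0557 CPM per kb) in HoxD. These rank correlations describe genes of the same libraries, which are not independent. Summed over the clusters, the 8 members of paralogs 1 to 3 held 47.9% of the Hox reads, the 15 of paralogs 4 to 8 held 22.6% and the 16 of paralogs 9 to 13 held 29.5%. Single genes made up much of the posterior share: Hoxd13 alone had 74.0% of the HoxD reads and Hoxc13 51.0% of the HoxC reads.

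**Figure D2:**
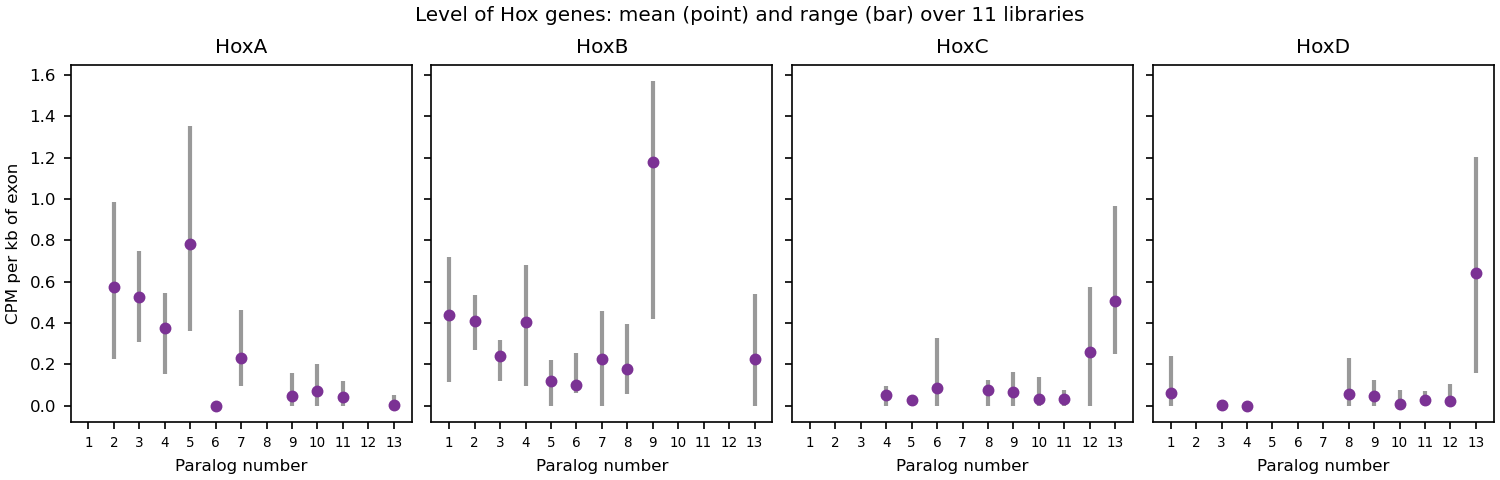
Level of 38 Hox genes in CPM per kilobase of exon (vertical axis) against their paralog number (horizontal axis), with 1 panel per cluster; points are means and bars the range over the 11 libraries. Hoxa5 (0.785) and Hoxb9 (1.18) stand above their neighbours, whereas the highest genes of HoxC and HoxD are Hoxc13 (0.506) and Hoxd13 (0.643).

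Summed over a cluster, HoxA was higher with siRNA 1 and HoxB lower with siRNA 2 than in the control. These sums are given as values, with no test. The HoxA sum was 13.1, 11.5 and 9.42 CPM in the control, 15.4, 16.7, 14.3 and 15.0 CPM under siRNA 1, and was 10.5, 12.2, 8.90 and 8.89 CPM under siRNA 2. All 4 siRNA 1 libraries were above all 3 controls, by 1.35 times on the means (15.3 ± 1.03 against 11.3 ± 1.83 CPM, SD, n = 4 and 3), and above all siRNA 2 libraries (10.1 ± 1.57, n = 4). The HoxB sum was 10.0, 9.13 and 10.5 CPM in the controls, 12.2, 9.35, 9.90 and 9.49 CPM with siRNA 1, and 9.09, 6.80, 9.03 and 7.78 CPM with siRNA 2. With siRNA 2 every HoxB sum was below every control, at 0.827 of the control mean, whereas siRNA 1 and control overlapped. The highest siRNA 2 sum (9.09 CPM) and the lowest control sum (9.13 CPM) were less than 1 read apart, at 0.119 to 0.148 CPM per read. Members of these clusters moved in both directions, so a sum does not stand for each gene. With siRNA 1 the mean of Hoxa3 went from 2.68 to 4.28 CPM and that of Hoxa5 from 1.87 to 1.63. With siRNA 2 Hoxb9 went from 3.73 to 2.33 CPM, Hoxb4 from 1.54 to 0.652 and Hoxb1 from 0.600 to 1.23. HoxC was 2.45 ± 0.434 CPM in the control (n = 3), 3.01 ± 0.415 with siRNA 1 (n = 4) and 1.83 ± 0.302 with siRNA 2 (n = 4). The siRNA groups of HoxC did not overlap with each other, but both overlapped with the control. The HoxD sums of all groups overlapped, with means of 2.11, 2.12 and 2.24 CPM and single libraries from 0.792 to 3.41 CPM. Over all members the sums were 25.8 ± 2.31 CPM in the control, 30.7 ± 2.67 with siRNA 1 and 22.4 ± 1.97 with siRNA 2. The lowest siRNA 1 library was above the highest siRNA 2 library, and both groups overlapped with the control. In these bulk libraries, a change in the share of cells that express a Hox gene and a change in its RNA per cell cannot be told apart.

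**Figure D3:**
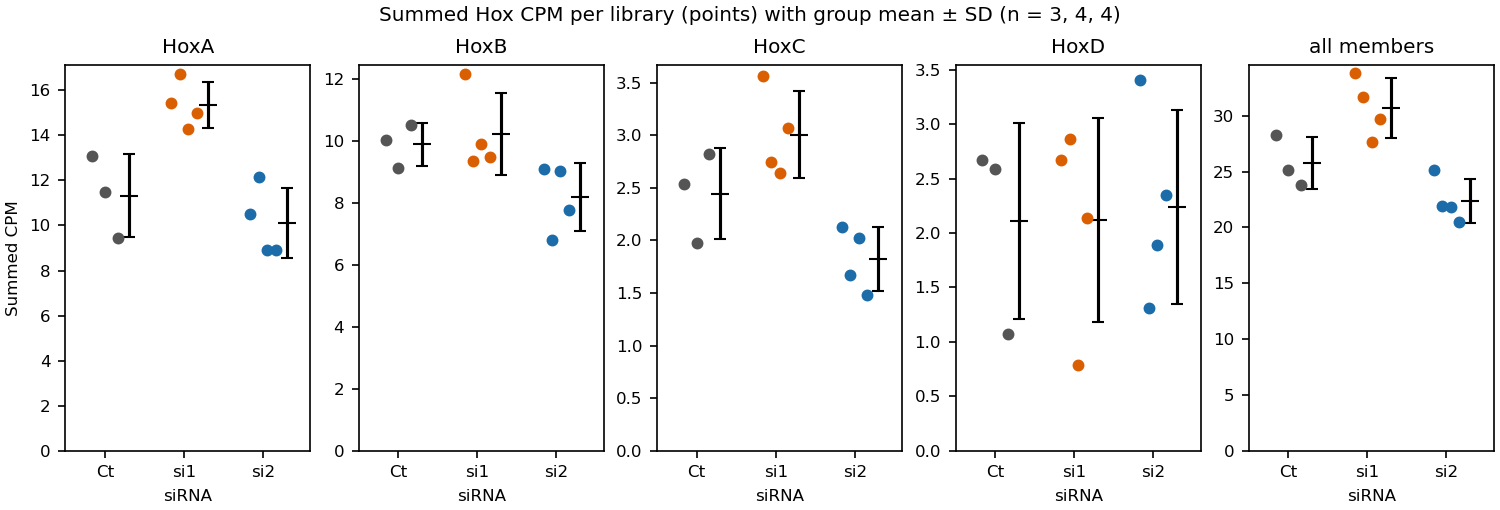
Summed CPM (vertical axis) of HoxA, HoxB, HoxC, HoxD and all 39 members in each library (points) for control (Ct), CMTR1 siRNA 1 (si1) and CMTR1 siRNA 2 (si2), with the group mean ± SD beside them (n = 3, 4 and 4). The 4 siRNA 1 libraries lie at 14.3 to 16.7 CPM for HoxA, above the controls at 9.42 to 13.1 CPM.

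The targeted gene was examined first in the fit over all genes (edgeR quasi-likelihood test with Benjamini-Hochberg adjustment over the 16073 genes). Cmtr1 was at 17.9 to 21.7 CPM in the control, 16.2 to 21.3 CPM with siRNA 1 and 15.6 to 19.5 CPM with siRNA 2. The log2 fold changes were −0.09 (SE 0.11, adjusted p = 0.743) and −0.25 (SE 0.11, adjusted p = 0.144), so the reads of the target did not separate the groups, which are therefore named by their labels.

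Of the 11 Hox genes tested, none passed an adjusted p of 0.05 with siRNA 1 and 1, Hoxb4, was lower with siRNA 2. For siRNA 1 the share of all genes tested that was called was 4.67%. Of the 11 members, 2 had an unadjusted p under 0.05, both higher, against 16.8% of all genes, the median log2 fold change was 0.23 against 0.02 over all genes, and 6 were above 0. For siRNA 2, 9.72% of all genes were called in either direction and 3.55% as lower, 4 members had an unadjusted p under 0.05 against 23.2% of all genes, and the median was −0.17 against 0.03. With these backgrounds, 0 and 1 of 11 are near the shares of all genes. The precision was low: the 95% intervals of the members had a median width of 1.38 log2 units for siRNA 1 and 1.53 for siRNA 2. For siRNA 1, edgeR's exactTest called 1 member, Hoxa3, while DESeq2 called none, had 1 member at an unadjusted p under 0.05 and gave no adjusted p for 10 of the 11. For the mean of both siRNAs against control, 0 members passed, 3 had an unadjusted p under 0.05 against 19.7% of all genes, and 6.91% of all genes were called (DESeq2 called 0, with 1 member under 0.05).

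**Figure D4:**
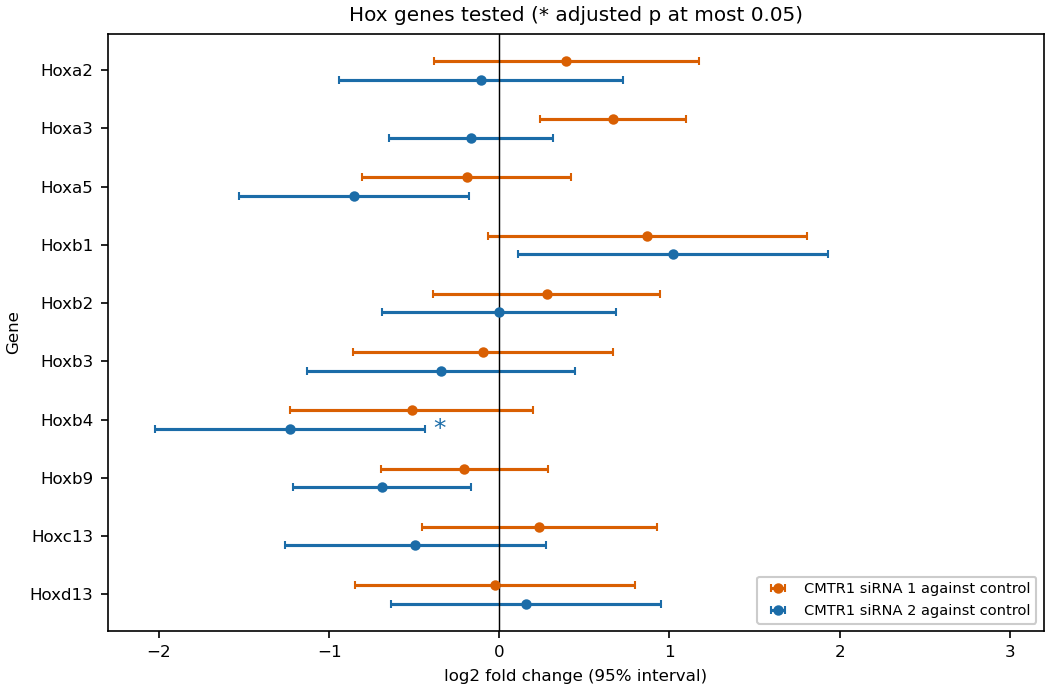
Log2 fold change (horizontal axis) of 10 of the 11 tested Hox genes (vertical axis) for CMTR1 siRNA 1 and siRNA 2 against the same 3 control libraries, with 95% intervals from the edgeR quasi-likelihood fit; an asterisk marks an adjusted p of at most 0.05. Hoxb4 with siRNA 2 (−1.23, from −2.02 to −0.44) carries the asterisk, and most other intervals span 0.

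Among the anterior HoxA genes, Hoxa3 had its highest values with siRNA 1. Hoxa3, which patterns the pharyngeal arches and the organs that derive from them, had 21, 24 and 18 control reads, 26, 36, 33 and 33 reads after siRNA 1, and 18, 23, 18 and 15 after siRNA 2. Each siRNA 1 library was above every other library, and control and siRNA 2 overlapped. The level was 2.68 ± 0.269 CPM in the control, 4.28 ± 0.285 with siRNA 1 and 2.40 ± 0.385 with siRNA 2 (SD, n = 3, 4 and 4). Against control the log2 fold change of Hoxa3 was 0.67 for siRNA 1 (SE 0.21, adjusted p = 0.0568 in edgeR's quasi-likelihood test) and −0.17 for siRNA 2 (SE 0.24, adjusted p = 0.737). With exactTest the adjusted p for siRNA 1 was 0.0441. The fit used the same controls for both siRNAs. Not overlapping with the control was shared by 2 of the 11 members for siRNA 1, Hoxa3 among them, against 15.5% of all genes tested. Of the antisense genes over Hoxa3, 5730596B20Rik had means of 0.509, 0.900 and 0.266 CPM in control, siRNA 1 and siRNA 2. Each of its siRNA 1 libraries was above every other library. In the same order Gm29430 had 0.0872, 0.340 and 0 CPM, Hoxaas2 0.475, 0.377 and 0.425, and Hoxaas3 0.255, 0.334 and 0.162. Their part in the Hoxa3 counts was not tested. Hoxa2, a hindbrain and second-arch gene, had 9, 5 and 8 reads in the control, 9, 14, 7 and 7 after siRNA 1, and 6, 11, 3 and 7 after siRNA 2, groups that overlapped. Hoxa5, a regulator of lung and neck development, had 20, 14 and 10 reads in the control, 10, 16, 14 and 9 after siRNA 1, and 5, 11, 5 and 11 after siRNA 2. Its log2 difference with siRNA 2 was −0.85 (SE 0.33, edgeR adjusted p = 0.103), and the groups overlapped.

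HoxB held the member that passed against control, a call that did not hold in every fit. Hoxb4, known for its use in expanding blood stem cells, had 12 reads in each of the 3 control libraries, 5, 14, 8 and 5 after siRNA 1, and 6, 7, 5 and 2 after siRNA 2. The siRNA 2 libraries were all below the control, and siRNA 1 spanned it. In level this was 1.54 ± 0.0689 CPM in the control (n = 3), 1.05 ± 0.491 with siRNA 1 (n = 4) and 0.652 ± 0.282 with siRNA 2 (n = 4). The log2 fold change of Hoxb4 with siRNA 2 was −1.23 (SE 0.39, 95% interval −2.02 to −0.44, adjusted p = 0.0381 by edgeR's quasi-likelihood test), and with siRNA 1 it was −0.51 (SE 0.35, adjusted p = 0.501). The call rests on 36 control and 20 siRNA 2 reads and did not survive the loss of some libraries: the adjusted p was 0.0797, 0.0879 and 0.114 without control replicate 1, 2 or 3, 0.0521 without siRNA 2 replicate 3 and 0.136 without siRNA 2 replicate 4. Hoxb4 was above 1 CPM in every control library (1.48 to 1.62 CPM) and in no siRNA 2 library (0.247 to 0.852 CPM). It thus passed the filter only through control and siRNA 1 libraries, which favours lower values with siRNA 2. In the edgeR fit with no filter on low counts the adjusted p of Hoxb4 was 0.0516, and with the replicate number as a block it was 0.0965. Hoxb1, a hindbrain gene, was the other member whose siRNA 2 libraries did not overlap with the control, making 2 of 11 against 19.4% of all genes. It had 5, 4 and 5 reads in the control, 11, 10, 2 and 10 after siRNA 1, and 11, 14, 7 and 6 after siRNA 2. The log2 differences of Hoxb1 were 0.87 (SE 0.47, edgeR adjusted p = 0.342) and 1.02 (SE 0.45, edgeR adjusted p = 0.156), and siRNA 1 replicate 3 lay below the controls. The control libraries of Hoxb1 were at 0.493 to 0.673 CPM. Hoxb1 thus passed the filter of more than 1 CPM only through siRNA libraries, which favours higher values there.

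Hoxb9 had 30, 27 and 30 reads in the control, 21, 19, 27 and 29 after siRNA 1, and 15, 9, 28 and 19 after siRNA 2. With siRNA 2 replicate 3 at 28 reads, the groups overlapped, and the log2 difference was −0.69 (SE 0.26, edgeR adjusted p = 0.0853). Without that library it was −1.02 (edgeR adjusted p = 0.0108), and with the replicate block −0.76 (edgeR adjusted p = 0.0489), where Hoxb9 was the member called in place of Hoxb4. Hoxb2 and Hoxb3, which act in the hindbrain, had 8 to 13 and 6 to 10 reads in the controls, 7 to 15 and 4 to 9 with siRNA 1, and 8 to 13 and 6 to 9 with siRNA 2. The groups of both genes overlapped, with log2 differences from control of 0.28 and −0.09 for siRNA 1 and 0.00 and −0.34 for siRNA 2; that of Hoxb2 with siRNA 2 turned to −0.024 with TMM factors. Hoxb3 shares much of its exons with the antisense Hoxb3os, with 47.1% of its bases free of a partner on either strand.

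The posterior genes Hoxc13, a regulator of hair and nail keratins, and Hoxd13, a digit gene, showed no change that passed the test. Hoxc13 had 9, 9 and 12 reads in the control, 16, 10, 7 and 12 after siRNA 1, and 8, 6, 9 and 5 after siRNA 2. Hoxd13 had 13, 18 and 5 reads in the control, 12, 21, 3 and 9 after siRNA 1, and 21, 7, 9 and 16 after siRNA 2. Both genes overlapped between all groups. Hoxd13 varied several-fold within each group, and it carried the spread of the HoxD sum.

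The members too low for the test were summed over libraries. Hoxa10 had 2 reads over the 3 control libraries, 13 over the 4 of siRNA 1 and 4 over the 4 of siRNA 2, and Hoxa9 had 7, 12 and 2. Hoxb13 had 5, 19 and 17 reads, and Hoxc12 had 9, 10 and 3. These genes were picked after their values were seen, and the control sums are over fewer libraries. Other low members went otherwise, such as Hoxb5 with 7, 8 and 13 reads and Hoxd8 with 7, 3 and 3. With a lower threshold of at least 10 reads in all libraries, 27 of the 39 members and 22625 genes were tested. The member calls stayed at 0 for siRNA 1 (4 at an unadjusted p under 0.05 against 13.5% of all genes, with 3.17% of all genes called) and at 1 for siRNA 2, Hoxb4 (edgeR adjusted p = 0.0497, with 6.31% of all genes called and 5 members against 18.4% of all genes under an unadjusted 0.05). No further member was called in either comparison. Members with under 10 reads, such as Hoxd3 and Hoxa13 with 1 read each, give no change that could be detected at this depth.

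Between the siRNAs, 1 member passed the test. In the fit of siRNA 2 against siRNA 1, 9 of the 11 tested members were below 0, against 49.5% of all genes and 11 of the 14 tested developmental regulators outside the clusters. Of the 9, 8 did not pass. The members' median log2 difference was −0.48 against 0.00 over all genes, and 1, Hoxa3, passed (edgeR quasi-likelihood test; 7.44% of all genes were called in either direction and 2.96% as lower). Hoxa3 was lower with siRNA 2 by a log2 difference of −0.84 (SE 0.20, 95% interval −1.25 to −0.43, edgeR adjusted p = 0.00594). All 4 siRNA 2 libraries were below all 4 siRNA 1 libraries, which held for 1 of 11 members against 11.8% of all genes. The call was kept with TMM factors, DESeq2 (adjusted p = 0.0342), exactTest, both other filters, the replicate block and each library left out, 18 alternatives with adjusted p from 0.00264 to 0.0345. An unadjusted p under 0.05 was reached by 4 of 11 members, against 21.1% of all genes. Beside Hoxa3, these included Hoxa5 and Hoxc13, with log2 differences of −0.66 and −0.73 (edgeR adjusted p = 0.233 and 0.210). At the threshold of 10 reads in all libraries 22 of 27 members were below 0 (7 at an unadjusted p under 0.05, against 16.9% of all genes), and Hoxa3 was again the 1 member called, with 4.96% of all genes. Hoxb1 and Hoxd13 lay above 0, at 0.15 and 0.18.

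The long intergenic RNA Gm53, which lies between Hoxb13 and Hoxb9 (chr11:96251105-96264868, + strand, its end 6.59 kb before the start of Hoxb9), had 1916 reads over all libraries, close to the 2206 of the Hox genes together. Reads numbered 174, 151 and 168 in the control, 208, 231, 186 and 206 after siRNA 1, and 125, 160, 159 and 148 after siRNA 2. In CPM the siRNA 1 libraries (24.6 to 30.9) were above all others, and control (18.6 to 22.6) and siRNA 2 (17.8 to 21.4) overlapped. Gm53 was higher with siRNA 1 than control by 0.40 (log2, SE 0.09, edgeR adjusted p = 0.00622), a call that was lost without control replicate 2 (0.32, adjusted p = 0.111). With siRNA 2 the difference from control was −0.14 (SE 0.10, edgeR adjusted p = 0.428). Between the siRNAs it was −0.54 (SE 0.09, edgeR adjusted p = 5.33e-05). Gm53 thus had the same order of groups as Hoxa3, with siRNA 1 libraries highest.

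**Figure D5:**
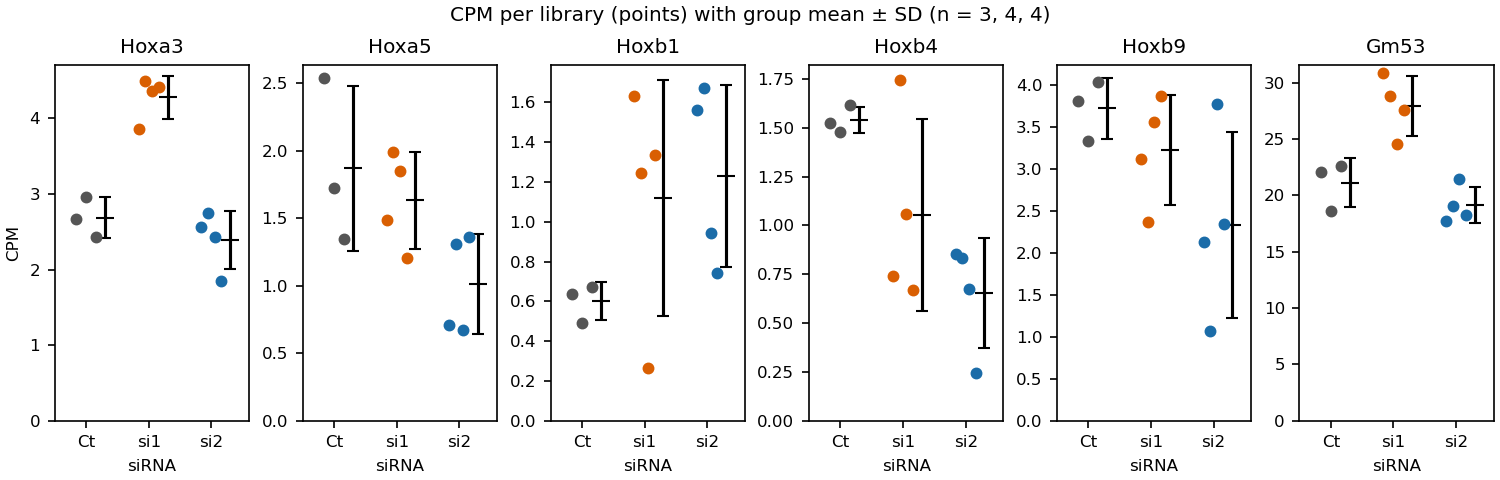
CPM (vertical axis) of Hoxa3, Hoxa5, Hoxb1, Hoxb4, Hoxb9 and the noncoding Gm53 in each library (points) for control (Ct), CMTR1 siRNA 1 (si1) and CMTR1 siRNA 2 (si2), with the group mean ± SD (n = 3, 4 and 4). For Hoxa3 the siRNA 1 libraries lie above all others, and for Hoxb4 the siRNA 2 libraries (0.247 to 0.852 CPM) lie below the controls (1.48 to 1.62 CPM).

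The other noncoding genes inside the clusters were scarce. Of 43 such genes, 19 had a read and 3 were tested: Gm53, the Mir196a-1 locus and Hoxb3os. The Mir196a-1 locus, between Gm53 and Hoxb9, had 11, 7 and 15 reads in the control, 15, 9, 16 and 11 after siRNA 1, and 4, 9, 9 and 8 after siRNA 2. Its groups overlapped, and reads there come from long RNA and do not measure the mature miRNA. The product of this locus is shown because miR-196 is a known repressor of Hox mRNAs, with its seed (bases 2 to 8) in capitals, from RefSeq (GRCm38.p6, chr11:96265187-96265208, + strand).
mmu-miR-196a-5p: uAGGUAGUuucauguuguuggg

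The antisense RNA Hoxaas3 had 21 reads over all libraries, and Hotair in HoxC had none. Outside the clusters, 13 of 16 flanking protein-coding genes (4 per cluster) were tested, and none was called against control by edgeR (3 and 2 at an unadjusted p under 0.05 for siRNA 1 and siRNA 2, against 16.8% and 23.2% of all genes), DESeq2 or exactTest. Between the siRNAs none was called by these tests either. There 5 of the 13 had an unadjusted p under 0.05 in edgeR, against 21.1% of all genes. The tested flanking genes included Skap2 beside HoxA (log2 differences from control 0.15 and −0.02) and Calcoco2 beside HoxB (−0.35 and −0.29). The 2 even-skipped genes next to HoxA and HoxD, Evx1 and Evx2, had 14 and 13 reads over all libraries and were not tested. The 13 tested flanking genes had means from 27.9 reads per library (Ttll6, beside HoxB) to 6474 (Cbx5, beside HoxC), well above the members.

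Promoter windows from 250 bases before to 50 after the start were listed by RefSeq (GRCm38.p6) for 22 of the 39 members, as 24 windows. They held more CpG dinucleotides than most promoters, with a median of 14.5 (range 4 to 45) against 7 over 32851 windows, and a median GC content of 57.7% against 52.7%. The windows of the 2 members that passed a test are shown with every CG in capitals, Hoxa3 at chr6:52213018-52213317 (− strand, 20 CpGs) and Hoxb4 at chr11:96318017-96318316 (+ strand, 14 CpGs). The Hoxa3 window lies at the upstream end of the gene model (chr6:52169062-52213336). Hoxa4, Hoxa5 and Hoxa6 lie between it and the homeobox of Hoxa3. Which start gave the counted Hoxa3 reads was not tested.
Hoxa3: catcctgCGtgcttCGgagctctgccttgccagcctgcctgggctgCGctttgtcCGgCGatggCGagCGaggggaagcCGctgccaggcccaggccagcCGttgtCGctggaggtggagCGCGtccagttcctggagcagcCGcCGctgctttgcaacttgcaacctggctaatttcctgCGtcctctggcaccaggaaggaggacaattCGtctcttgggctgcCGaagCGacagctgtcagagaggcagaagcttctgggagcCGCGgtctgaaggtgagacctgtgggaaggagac
Hoxb4: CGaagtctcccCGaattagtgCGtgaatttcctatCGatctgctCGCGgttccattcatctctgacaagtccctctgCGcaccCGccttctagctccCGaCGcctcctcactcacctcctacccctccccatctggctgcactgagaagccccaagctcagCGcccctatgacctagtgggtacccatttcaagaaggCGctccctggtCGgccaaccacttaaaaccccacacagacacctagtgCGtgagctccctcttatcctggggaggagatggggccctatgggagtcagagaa

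The letters AGGTCA, the half-site bound by retinoic acid receptors, were found on either strand in 7 of the 24 Hox windows (29.2%) and in 16.3% of all windows, and TATAAA in 4 of 24 (16.7%) and 13.6% of all. Hoxb4 holds AGGTCA, and neither Hoxa3 nor Hoxb4 holds TATAAA. The matches are of letters in a window of 300 bases, both strands counted, and describe sequence only.

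The genes that silence and activate the clusters were well expressed, and those that passed the test went in both directions. All 34 listed genes of the Polycomb complexes were tested: 2 were higher and 2 lower with siRNA 1, and 4 were higher and 5 lower with siRNA 2. Of all genes tested, 4.67% were called for siRNA 1 and 9.72% for siRNA 2. The listed genes had a median level of 84.8 CPM, far above the Hox members, so smaller changes could be called in them. Rbbp7, a histone-binding subunit of PRC2, rose by 0.42 and 0.49 (log2, edgeR adjusted p = 5.46e-07 and 6.85e-09). Epop, a PRC2 accessory factor, fell by 0.46 and 0.23 on the log2 scale (edgeR adjusted p = 3.17e-07 and 0.00378), and Cbx6, a reader subunit of PRC1, fell by 0.24 and 0.37. The catalytic subunit gene Ezh2 had differences of −0.06 and −0.14 (edgeR adjusted p = 0.604 and 0.0687). Phc2, a scaffold of PRC1, rose by 0.26 and 0.27, and Cbx7 fell with siRNA 2 by 0.22. The Phc2 calls were lost in DESeq2, for siRNA 1 without any 1 of the control libraries or siRNA 1 replicate 1 or 2, and for siRNA 2 without control replicate 2 or 3 or siRNA 2 replicate 2. The median over the list was −0.04 and −0.01, against 0.02 and 0.03 over all genes. Of 11 MLL complex and H3K27 demethylase genes, 1 was lower with siRNA 1 (Kmt2c, −0.16) and 2 with siRNA 2 (Kmt2c, −0.17, and Dpy30, −0.17). None of these calls held with every library left out in turn. Kmt2c was lost for siRNA 1 without control replicate 2 or 3 or any 1 of the siRNA 1 libraries, and for siRNA 2 without control replicate 2 or 3 or siRNA 2 replicate 1 or 2. Dpy30 was lost without control replicate 1 or 2, siRNA 1 replicate 2 or siRNA 2 replicate 2, 3 or 4.

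The cofactors and upstream signals of Hox genes gave few calls. Of 9 TALE homeodomain cofactor genes, which bind DNA together with HOX proteins, Pknox2 alone passed against control and was higher with both siRNAs (log2 0.59 and 0.47, edgeR adjusted p = 0.000397 and 0.00301), with the call for siRNA 2 lost without control replicate 2. Between the siRNAs, Meis1 and Meis2 were lower with siRNA 2 (−0.38 and −0.28). Among 16 tested of 19 retinoic acid pathway genes, Crabp2, a retinoic acid carrier, rose with both siRNAs (0.70 and 0.84). Among the other upstream regulators, 6 of 8 were tested and 1 passed, Cdx4, a caudal factor that activates Hox genes, which was higher with both (log2 1.54, SE 0.45, edgeR adjusted p = 0.0360, and 1.49, SE 0.45, edgeR adjusted p = 0.0290). In the control Cdx4 was at 0.419 ± 0.305 CPM (SD), with no library above 1 CPM. Cdx4 thus passed the filter only through siRNA libraries, which favours higher values there. The Cdx4 call was lost for both siRNAs without control replicate 1 or 3, and DESeq2 gave no adjusted p. For siRNA 1 it was also lost without siRNA 1 replicate 1, 3 or 4, and for siRNA 2 without siRNA 2 replicate 1, 3 or 4. Cdx4 is also on the list of ParaHox and even-skipped genes, of which 3 of 8 were tested, and there Gsx1 was higher with siRNA 2 (0.79), except in the fit without control replicate 3.

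Other Polycomb targets had few calls, in both directions against control. Of the 30 listed developmental regulators outside the clusters, 14 were tested. None was called for siRNA 1 by edgeR's quasi-likelihood test or exactTest or by DESeq2 (4, 4 and 3 at an unadjusted p under 0.05), and for siRNA 2 1 was higher, Wt1 (log2 0.22, edgeR adjusted p = 0.0204), and 1 was lower. The Wt1 call was lost without control replicate 2 or 3 or siRNA 2 replicate 1 or 2, and in DESeq2. Their median log2 difference was 0.12 for siRNA 1, −0.18 for siRNA 2 and −0.32 between the siRNAs, where 11 of the 14 were below 0 and 2 were called, Pax6 (−0.68) and Irx3 (−0.75), both lower with siRNA 2. The members' medians in the same contrasts were 0.23, −0.17 and −0.48.

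Markers of the cells were read beside these values, and their part in the Hox values was not tested. All 12 pluripotency markers were expressed, with a summed level of 2734 to 2868 CPM in the control, 2330 to 2572 CPM with siRNA 1 and 2458 to 2598 CPM with siRNA 2. For siRNA 1 and siRNA 2, 8 and 6 of the 12 were called lower and none higher. Of all genes tested, 4.67% and 9.72% were called in either direction. The log2 fold change was below 0 for 12 and 11 of the 12. Of 12 fibroblast and feeder markers 8 were tested; their sum was 44.9 to 56.6 CPM in the control, 47.1 to 58.9 with siRNA 1 and 55.8 to 62.6 with siRNA 2, none was called for siRNA 1 by edgeR or DESeq2 (1 and 0 at an unadjusted p under 0.05), and for siRNA 2 Col1a1 (0.75) and Dcn (1.13) were higher and Col3a1 (−1.42) lower. Col3a1 was lost without control replicate 1 or siRNA 2 replicate 2 or 4, and DESeq2 gave no adjusted p for Dcn or Col3a1. Of 10 neural markers 7 were tested, with sums of 179.5 to 183.3, 190.2 to 214.3 and 193.7 to 224.8 CPM; Nes was higher with both siRNAs (0.26 and 0.45) and Map2 with siRNA 2 (0.36). The siRNA 1 call of Nes was lost without control replicate 2 or siRNA 1 replicate 1 or 2 and in DESeq2, and that of Map2 without any 1 of the control libraries, siRNA 1 replicate 2 or 4 or siRNA 2 replicate 1, 2 or 4, in DESeq2, with TMM factors, with either other filter and with the replicate block. Of 10 caudal and mesoderm markers 5 were tested, with sums of 11.2 to 12.9, 12.8 to 14.0 and 8.59 to 13.1 CPM. Cdx4, which passed the filter only through siRNA libraries, was the 1 called. No marker on these lists was at 0 in all libraries.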

How the data were processed

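Gene counts of 11 RNA-seq libraries of E14 ESCs were used. The authors deposited raw counts, 1 table per library of 54838 Ensembl genes; the submitters' processing notes and the study's methods name cutadapt for trimming the 75-base reads, STAR for alignment (GRCm38), Picard for taking out PCR duplicates and featureCounts for counting. Tool versions, the strand setting and the annotation release were not given in the sources used here. In 10 of 11 tables, closing lines in the layout of HTSeq-count (5314618 to 6998875 reads in no gene and 137308 to 164565 ambiguous reads per library) were left out of totals and tests.

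Symbols, biotypes and exon lengths came from GENCODE M21 (GRCm38), which held 54809 of the identifiers. Counts were scaled by library totals (CPM), as the study scaled them, and tested with edgeR 4.0.16 (R 4.3.3), quasi-likelihood, on genes with more than 1 CPM in at least 4 libraries; p-values were Benjamini-Hochberg adjusted over all 16073 genes, with calls at 0.05. Contrasts compared siRNA 1, siRNA 2 and their mean with control, and also the siRNAs with each other. Replicates differed by more than sampling noise in every pair (chi-square per degree of freedom 1.37 to 3.30). Intervals and floors cover counting error or the fit only.

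The members, gene lists and tests were chosen with earlier results of these data known. Named genes were each member tested and the 3 highest per kb in each cluster (some genes that the rule names are not reported here, though counts, sums and medians include them), members at 0, noncoding genes of at least 10 reads per library on average and up to 5 called genes per list; the other low members, Ezh2 and the flanking, noncoding and Evx genes named were picked after their values were seen. On simulated data the test was checked before use. Alternatives were TMM factors, DESeq2 1.42.0, exactTest (the test in the study's methods), filters of at least 10 reads in all libraries or none, only the groups compared, a replicate block, and each library left out. Homeoboxes were found by translating the GENCODE M21 transcripts.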

Additional observations from a re-analysis of the deposited data

Results flagged for a closer look

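Hoxa3 and Gm53 differed between the CMTR1 siRNAs in the edgeR quasi-likelihood test of the difference itself: −0.84 for Hoxa3 (adjusted p = 0.00594) and −0.54 for Gm53 (adjusted p = 5.33e-05), siRNA 2 minus siRNA 1 on the log2 scale. In both, siRNA 1 lay above the control and siRNA 2 did not.

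The summed CPM of HoxC and of all members lay above the control mean in every siRNA 1 library and below it in every siRNA 2 library, with means that were 1.18 CPM apart for HoxC and 8.33 CPM apart for all members; these differences between the siRNAs were not tested.

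In 2 of 30 groups of 4 libraries, 1 library stood apart from the others in Dixon's ratio, and chance gives about 1 in 20. For Hoxb2 with siRNA 1, replicate 4 was at 0.936 CPM and the others at 1.78 to 1.87 (ratio 0.905). For Hoxb3 with siRNA 2, replicate 1 was at 1.28 CPM and the others at 0.716 to 0.809 (ratio 0.835).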

How the results depend on the processing

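Depth set the limit: 12 of the 39 members had fewer than 10 reads in all libraries, and the tested members' intervals were over 1 log2 unit wide at the median. Of the results on members and clusters, these moved. For siRNA 1, exactTest called 1 member (Hoxa3) in place of 0. For siRNA 2, no filter gave 0 calls and DESeq2 gave 0, with no adjusted p for 10 of the 11 members, so that it neither keeps nor loses Hoxb4. With each library left out, the calls ranged from 0 to 1 for siRNA 2, from 0 to 1 for both siRNAs (Hoxb4, without siRNA 1 replicate 2) and from 1 to 2 for siRNA 2 against siRNA 1 (Hoxa3, and Hoxb9 without siRNA 2 replicate 3), and the log2 ratio of the HoxA sum with siRNA 1 ranged from 0.32 to 0.55 around 0.44. The log2 ratios that crossed 0 were those of the HoxB sum with siRNA 1 (−0.045 to 0.095) and of the HoxD sum with siRNA 1 (−0.31 to 0.28) and siRNA 2 (−0.23 to 0.29). The Polycomb complex genes called, 4 and 9 for siRNA 1 and siRNA 2, ranged from 3 to 6 and from 5 to 11, the MLL and demethylase genes, 1 and 2, from 0 to 1 and from 0 to 2, and the neural markers, 1 and 2, from 0 to 1 and from 1 to 2. With no filter, the calls of Kmt2c and Cdx4 for siRNA 1 and 1 of the 2 neural marker calls for siRNA 2 were lost. The cause of these moves was not tested.

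Replicate numbers did not pair the libraries: same-numbered libraries correlated at a mean of 0.00955 (−0.0574 to 0.0616, 10 pairs) in their deviations from the group means, and others at −0.00318. With the replicate block the members called stayed at 0 for siRNA 1 and 1 for siRNA 2, but the member was Hoxb9 (−0.76, edgeR adjusted p = 0.0489) and not Hoxb4 (−1.02, adjusted p = 0.0965), and Hoxa3 was again the 1 called between the siRNAs.

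Changes of sign were all of uncalled differences. Hoxb2 with siRNA 2 was −0.024 with TMM factors, and Hoxd13 with siRNA 1 was 0.000283 with the replicate block. With each library left out, these log2 differences crossed 0. For siRNA 1 they were Hoxa5 (−0.37 to 0.088), Hoxb3 (−0.32 to 0.16), Hoxc13 (−0.028 to 0.42) and Hoxd13 (−0.47 to 0.36). For siRNA 2 they were Hoxa2 (−0.40 to 0.12), Hoxb2 (−0.18 to 0.23) and Hoxd13 (−0.20 to 0.54). For both they were Hoxa2 (−0.093 to 0.31), Hoxb2 (−0.041 to 0.37), Hoxc13 (−0.26 to 0.055) and Hoxd13 (−0.27 to 0.45), and between the siRNAs Hoxb1 (−0.18 to 0.36) and Hoxd13 (−0.17 to 0.63).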
